A study of Oryza sativa Japonica Group with 12 samples.

Results

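PR1a (LOC_Os07g03710), PR1b (LOC_Os01g28450), PR10a, also called PBZ1 (LOC_Os12g36880), PR10b (LOC_Os12g36850) and RSOsPR10 (LOC_Os12g36830) are rice pathogenesis-related genes. They were chosen by name, as the PR1 pair and the PR10 genes of one stretch of chromosome 12. The rule uses no measured value, although earlier results of these data were known when it was made. They make up 5 of the 29358 loci in the expression table. Of the 5, 4 passed the filter of 1 FPKM in at least 3 libraries that was needed for testing, and PR1b, with 1 FPKM or more in 2 libraries, did not.

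RNA was sequenced from whole rice seedlings, 5 days old, of Oryza sativa Japonica Group. Wild type (WT/NIP) and the raf-b2/3 line were each sampled as untreated controls and after 6 h in 800 mM mannitol, a sugar alcohol used as an osmotic stress, giving 4 groups of 3 libraries. The labels call raf-b2/3 a knockdown of B2/3 RAF kinases in one field and a mutant in another. They name no locus for the targeted kinases, so the lesion was not checked here, and they do not say how many independent lines were used. Apart from genotype and mannitol, the labels record no difference between the groups. Whether replicate libraries came from separate batches of seedlings is not stated, so a p-value reflects how far these libraries scatter, and that scatter may be technical.

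PR1 proteins are small secreted proteins of the CAP superfamily, and their transcripts are widely used in plants as markers of salicylic acid signalling and of infection. PR10 proteins are small, mostly cytosolic proteins related to the birch pollen allergen Bet v 1. PBZ1 was named for its induction by probenazole, a compound that protects rice against blast, and RSOsPR10 was described as a root-specific PR10 gene that responds to drought, salt and jasmonate.

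Values are FPKM, a fragment number per transcript length and library total, which corrects for gene length and library size. Whole fragment numbers could be recovered from the FPKM steps for each of the 29358 loci, and the libraries held 37534836 to 39792489 fragments. The 4 tested members each drew on 533 to 9643 fragments in a library. A difference is given on the log2(FPKM + 1) scale with its standard error, from limma across 22371 loci, and its p-value was adjusted over those loci by the Benjamini-Hochberg method. A gene is said to have risen or fallen where the adjusted p was under 0.05, and to have met the fold rule where the difference was also at least 1 in size.

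The table's locus numbers place RSOsPR10, PR10b and PR10a within a run of neighbouring numbers on chromosome 12. How fragments that match more than one PR10 copy were counted is not given in the sources used here, so the split of reads among the 3 genes is uncertain. Because the libraries come from whole seedlings, fewer cells of a type and less RNA per cell cannot be told apart in any of the values that follow.

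The 3 PR10 genes rose under mannitol in raf-b2/3, by 1.01 to 1.60 on the log2 scale, while in WT their differences were 0.09 to 0.25 and none passed the test. Tested directly in the main fit of all 12 libraries, the difference in response passed for none of the 3 (limma adjusted p of 0.054 to 0.5). PR1a fell in raf-b2/3, by 0.78 on the log2 scale, which is under the fold rule. In raf-b2/3, 4 of the 4 tested members passed the adjusted p, where 62.2% of all loci did, 35.6% upward and 26.7% downward. The fold rule was met by 3 of them, all higher, where 12.4% of all loci met it in either direction and 7.49% upward. Without raf-b2/3 control 3, it was met by 1 member. In WT, 0 of 4 passed, where 63.3% of all loci did, 37.7% upward and 25.5% downward, and 13.8% also met the fold rule. Both percentages for the adjusted p alone are large, so a pass there sets no member apart from the table at large.

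**Figure D1:**
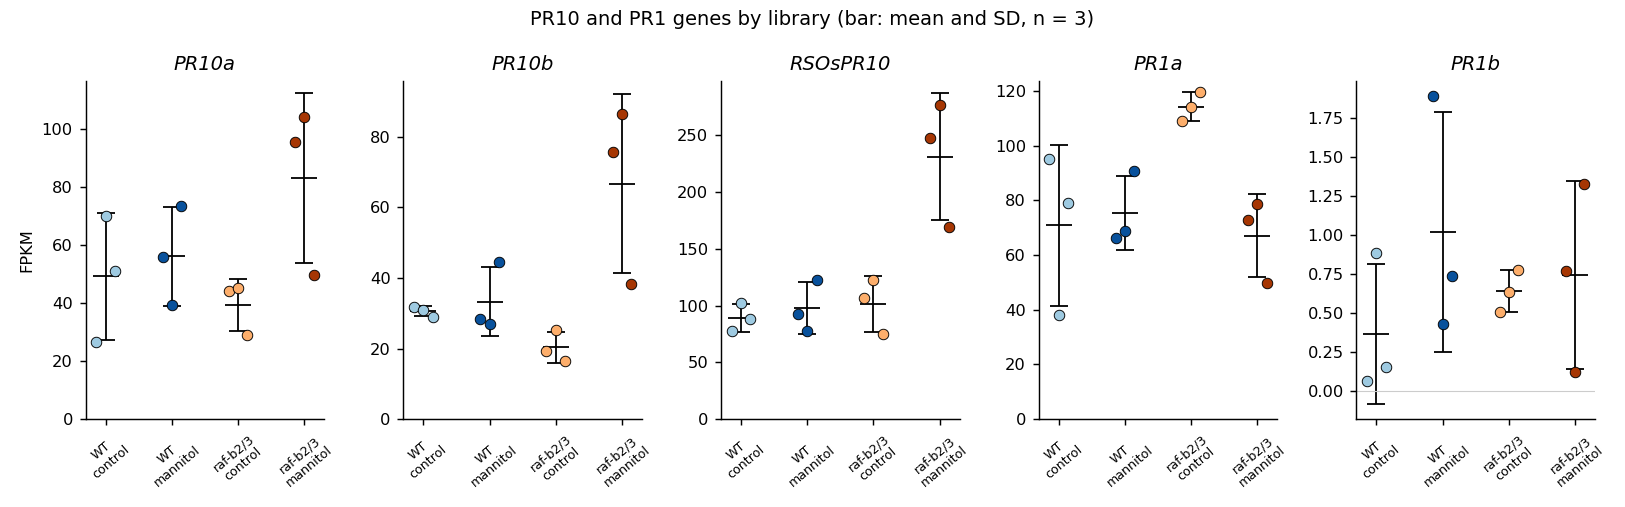
FPKM of the 5 members in each library, by group, with the group mean and its SD over 3 libraries. The raf-b2/3 mannitol points of PR10a, PR10b and RSOsPR10 sit above those of the raf-b2/3 controls, PR1a is highest in the raf-b2/3 controls, and PR1b stays below 2 FPKM.

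PR10a, the probenazole-inducible PBZ1, stood at 26.5, 70.1 and 51.1 FPKM in the WT controls and at 55.8, 39.3 and 73.4 in WT under mannitol. In raf-b2/3 it stood at 44.1, 45.1 and 29.0 in the controls and at 95.4, 104 and 49.7 under mannitol. The WT groups overlapped almost completely, and the spread was wide even among WT controls, where the highest library was 2.65 times the lowest. The raf-b2/3 groups did not overlap, although the third mannitol library lay close to the upper controls. Group means were 49.2 ± 21.8 in WT controls, 56.2 ± 17.0 in WT under mannitol, 39.4 ± 9.03 in raf-b2/3 controls and 82.9 ± 29.1 in raf-b2/3 under mannitol (SD, n = 3 each). PR10a rose in raf-b2/3 by 1.01 (SE 0.36, limma adjusted p = 0.026). That call was lost without raf-b2/3 control 3, mannitol 1 or mannitol 2 in turn, where the difference was 0.81, 0.88 and 0.82 and the adjusted p 0.099, 0.086 and 0.097. In WT the difference was 0.25 (SE 0.36, adjusted p = 0.56), with a 95% interval from -0.53 to 1.02.

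PR10b, another gene of the chromosome 12 group, was the steadiest of the 3 chromosome 12 PR10 genes in WT controls, at 31.8, 30.8 and 29.0 FPKM. It stood at 28.4, 26.9 and 44.6 in WT under mannitol, at 19.4, 25.2 and 16.6 in raf-b2/3 controls and at 75.6, 86.4 and 38.3 in raf-b2/3 under mannitol. The third library was the high one among WT under mannitol and the low one among raf-b2/3 under mannitol. The mean level ran from 20.4 ± 4.41 in raf-b2/3 controls, through 30.5 ± 1.41 in WT controls and 33.3 ± 9.84 in WT under mannitol, to 66.8 ± 25.3 in raf-b2/3 under mannitol (SD, n = 3 each). The WT groups overlapped, with a difference of 0.09 (SE 0.27, 95% interval -0.49 to 0.67, limma adjusted p = 0.79). In raf-b2/3 the groups were separate and PR10b rose by 1.60 (SE 0.27, adjusted p = 2.4e-04), the largest rise among the members. Leaving out 1 library at a time gave 1.38 to 1.95, and the call held each time.

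RSOsPR10, the gene described from roots, had the highest level of the 3 chromosome 12 PR10 genes in each library. It stood at 77.5, 102 and 88.5 FPKM in WT controls and at 92.7, 77.7 and 123 in WT under mannitol. In raf-b2/3 it stood at 107, 123 and 74.8 in controls and at 248, 277 and 169 under mannitol. Both WT groups and the raf-b2/3 controls overlapped, and each raf-b2/3 mannitol library lay above every other library. Group means were 89.5 ± 12.4, 97.8 ± 23.1 and 102 ± 24.6 in those 3 groups and 231 ± 55.6 in raf-b2/3 under mannitol (SD, n = 3 each). RSOsPR10 rose in raf-b2/3 by 1.18 (SE 0.22, limma adjusted p = 5.6e-04) and differed in WT by 0.11 (SE 0.22, 95% interval -0.37 to 0.59, adjusted p = 0.68). The raf-b2/3 rise passed the adjusted p without each library in turn, at 0.98 to 1.39.

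PR1a, a PR1 gene used as a defence marker in rice, was highest in untreated raf-b2/3 and fell there under mannitol. It stood at 95.3, 38.1 and 79.2 FPKM in WT controls and at 66.2, 68.8 and 90.8 in WT under mannitol. In raf-b2/3 it stood at 109, 114 and 119.6 in controls and at 72.9, 78.8 and 49.8 under mannitol. The raf-b2/3 controls were the highest group and the tightest, above each of the other 9 libraries, while the WT groups overlapped. PR1a fell in raf-b2/3 by 0.78 on the log2 scale (SE 0.27, limma adjusted p = 0.025), from a mean of 114 ± 5.26 to 67.2 ± 15.3 FPKM (SD, n = 3 each). The call was lost without raf-b2/3 control 2, control 3 or mannitol 3, where the difference was -0.78, -0.75 and -0.59 and the adjusted p 0.053, 0.064 and 0.11. In WT the difference was 0.17 (SE 0.27, adjusted p = 0.6) between means of 70.9 ± 29.5 and 75.3 ± 13.5, and without WT control 2 it was -0.22 (adjusted p = 0.31).

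PR1b, the other PR1 gene, was close to the limit of detection. It stood at 0.0631, 0.882 and 0.154 FPKM in WT controls and at 1.89, 0.432 and 0.736 in WT under mannitol. In raf-b2/3 it stood at 0.507, 0.637 and 0.778 in controls and at 0.771, 0.124 and 1.33 under mannitol. These values rest on 2 to 59 fragments, the groups overlap in both genotypes, and no order of the groups can be read from them. With no filter on low values, limma gave a difference of 0.55 (SE 0.31, adjusted p = 0.16) in WT and 0.03 (SE 0.31, adjusted p = 0.97) in raf-b2/3.

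The authors' deposited table gives log2 fold changes in raf-b2/3 of 1.0 for PR10a, 1.63 for PR10b, 1.11 for RSOsPR10 and -0.85 for PR1a. For WT the authors' deposited table gives 0.08, 0.02, 0.02 and -0.02 in the same order. The authors' deposited p-values in that order are 0.0064, 1.3e-05, 1.9e-09 and 8.6e-09 in raf-b2/3, and they lie between 0.86 and 0.96 in WT. Whether they are adjusted is not given in the sources used here. For PR1b the authors' deposited table gives 1.36 in WT, with a p-value of 0.1, and 0.14 in raf-b2/3. The differences reported above were taken on FPKM + 1, which shrinks them for genes at low levels, PR1b among them. They are therefore not on the scale of the deposited fold changes.

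**Figure D2:**
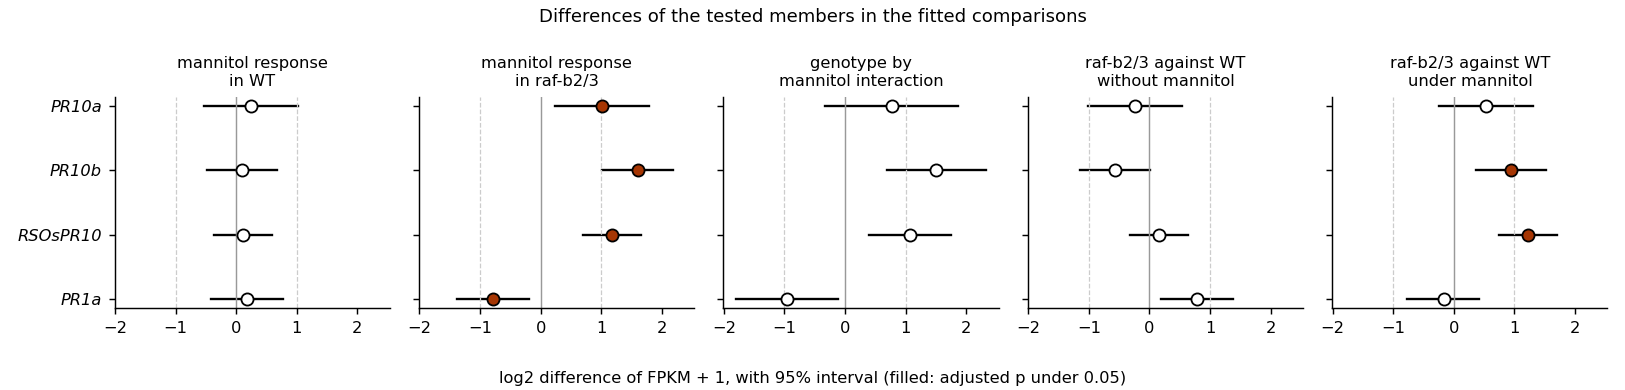
Log2 differences of the 4 tested members in the 5 comparisons, as points with 95% intervals from limma. In WT the 4 intervals cross 0, in raf-b2/3 none does, and under mannitol the raf-b2/3 against WT intervals of PR10b and RSOsPR10 lie above 0.

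The size of the mannitol response was then compared between genotypes. For PR10b it was 1.51 greater in raf-b2/3 than in WT (SE 0.38, 95% interval 0.69 to 2.33, limma adjusted p = 0.054), and for RSOsPR10 it was 1.07 greater (SE 0.31, 95% interval 0.39 to 1.75, adjusted p = 0.093). For PR10a the difference in response was 0.77 (SE 0.50, adjusted p = 0.5) and for PR1a -0.96 (SE 0.39, 95% interval -1.80 to -0.11, adjusted p = 0.24). None of the 4 tested members passed, where 2.98% of all loci did. At an unadjusted p under 0.05 PR10b, RSOsPR10 and PR1a passed, at 0.0017, 0.0049 and 0.029. Leaving out 1 library at a time gave 1.29 to 1.87 for PR10b, with adjusted p of 0.004 to 0.15, and 0.87 to 1.28 for RSOsPR10, with adjusted p of 0.038 to 0.21. Of 19 alternatives, PR10b passed in 4, among them without WT mannitol 3 (1.74, adjusted p = 0.037), without raf-b2/3 mannitol 3 (1.87, adjusted p = 0.004) and after median-of-ratios scaling (1.54, adjusted p = 0.049). RSOsPR10 passed in 1 of 19, without raf-b2/3 mannitol 3 (1.28, adjusted p = 0.038). In the main fit of all 12 libraries, no member was therefore shown to respond differently in raf-b2/3 and WT at the adjusted threshold. Median-of-ratios scaling also used all 12 libraries, and there PR10b passed.

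Between the genotypes without mannitol, 0 of 4 members passed, where 1.81% of all loci did and 0.595% also met the fold rule. PR1a was higher in each raf-b2/3 control than in each WT control, by 0.78 (SE 0.27, limma adjusted p = 0.2). PR10b was lower in each raf-b2/3 control than in each WT control, by -0.57 (SE 0.27, adjusted p = 0.34). Neither difference passed, and the share of all loci whose groups separate in this way was not counted, so separation sets neither gene apart. The same share was not counted for the other comparisons where groups are said not to overlap. PR10a and RSOsPR10 overlapped, with differences of -0.24 (adjusted p = 0.81) and 0.16 (adjusted p = 0.78).

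Under mannitol, 2 of 4 members passed and both were higher in raf-b2/3, where 15.8% of all loci passed and 8.37% passed upward. RSOsPR10 was 1.23 higher (SE 0.22, 95% interval 0.75 to 1.71, limma adjusted p = 0.0028), with no overlap, and met the fold rule that 2.28% of all loci met. PR10b was 0.94 higher (SE 0.27, 95% interval 0.36 to 1.52, adjusted p = 0.032), but the groups overlapped, since WT mannitol 3 at 44.6 FPKM exceeded raf-b2/3 mannitol 3 at 38.3. Its call was lost without either of the other two WT mannitol libraries, at 0.84 and 0.81, or either of the other two raf-b2/3 mannitol libraries, at 0.81 and 0.71, with adjusted p between 0.1 and 0.13. PR10a differed by 0.53 (SE 0.36, adjusted p = 0.36) and PR1a by -0.17 (SE 0.27, adjusted p = 0.73), and both overlapped. These genotype comparisons and the responses above share libraries, so they are not independent of one another.

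Some libraries moved several members at once. Raf-b2/3 mannitol 3 was the lowest of its group for PR1a and for each of the 3 PR10 genes, and WT mannitol 3 was the highest of its group for the same 4 genes. WT control 2 was lowest of its group in PR1a and highest in PR10a and RSOsPR10. It also stood apart in root transcripts: the summed level of 7 root markers was 116 FPKM there against 454 and 504 in the other WT controls, and 558 to 666 in the raf-b2/3 controls. Under mannitol that sum was 77.8 to 86.8 in WT and 62.0 to 90.5 in raf-b2/3, and of the 6 root markers tested 5 fell in each genotype, where 25.5% of all loci fell in WT and 26.7% in raf-b2/3. NRT2.2, the root marker that was not tested, was at 0 to 0.315 FPKM. RSOsPR10 rose in raf-b2/3, where 5 of the 6 tested root markers fell. IRT1, a root marker named after its values were seen, had means of 0.814 FPKM in raf-b2/3 controls and 0.982 under mannitol. Root content itself was not measured. The summed level of 9 green tissue markers was 33371 to 37806 FPKM in the control libraries and 20133 to 27110.3 under mannitol. Of the 9, 4 fell in each genotype, against the same shares of all loci. The sum of 2 seed storage markers was 2.55 to 3.66 FPKM. Of these 2, 1 rose in each genotype, where 37.7% of all loci rose in WT and 35.6% in raf-b2/3. Mean GLUA1 went from 0.556 to 1.16 FPKM in WT and from 0.737 to 1.51 in raf-b2/3. Mean GLUA2 went from 2.08 to 1.74 and from 1.97 to 1.75. The part of root and shoot content in the members' differences was not tested.

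**Figure D3:**
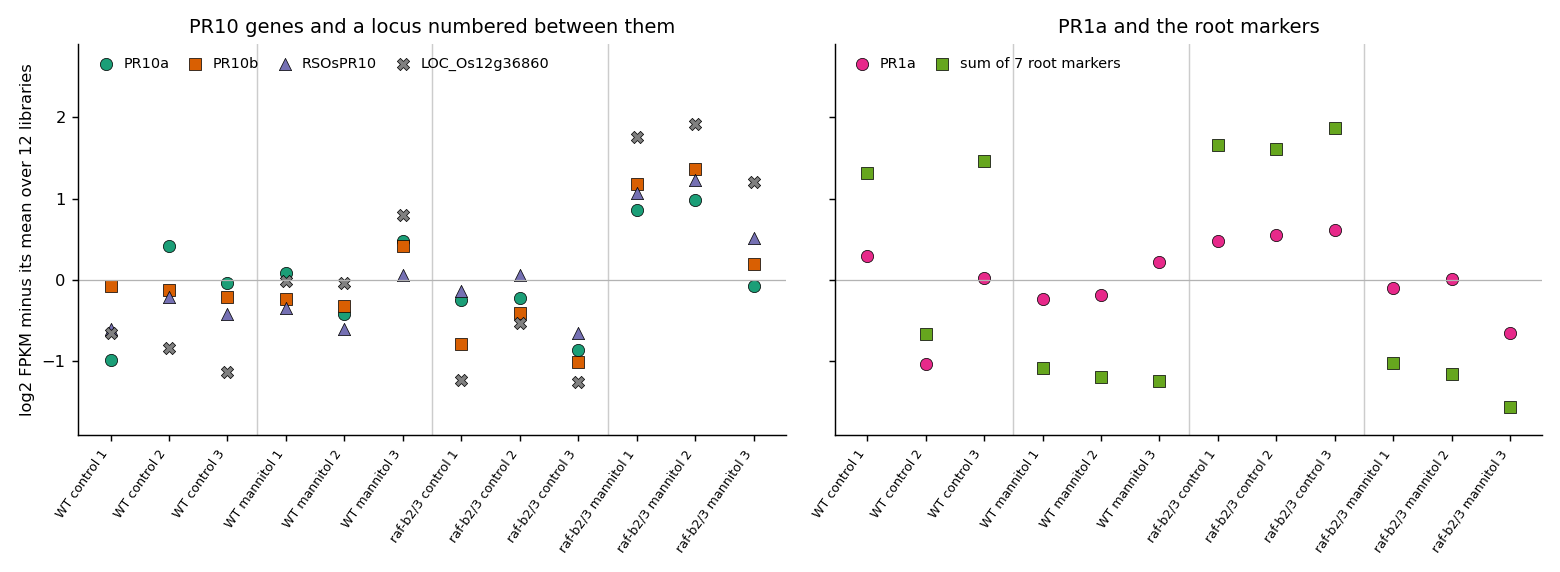
Log2 FPKM of each gene minus its mean over the 12 libraries, for the PR10 genes with a locus numbered between them, and for PR1a with the sum of 7 root markers. Raf-b2/3 mannitol 3 is the lowest point of its group for each PR10 gene, and PR1a and the root marker sum are both low in WT control 2. Both are also lower under mannitol in raf-b2/3. In WT under mannitol the sum is 77.8 to 86.8 FPKM (116 to 504 in controls), while PR1a is 66.2 to 90.8 FPKM (38.1 to 95.3 in controls).

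Across the 12 libraries, which share the 4 conditions, the 3 PR10 genes had similar profiles. Pearson's r of log2(FPKM + 1) was 0.81 for PR10a with PR10b, 0.81 for PR10a with RSOsPR10 and 0.86 for PR10b with RSOsPR10. With each group's mean removed, r was 0.67, 0.89 and 0.87 in that order, so libraries of one group also differed in step. For PR1a r was -0.41 with PR10a, -0.30 with PR10b and -0.18 with RSOsPR10, and with each group's mean removed it was -0.18, 0.47 and 0.10. The part of fragments shared between PR10 copies in these values was not tested.

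Among the members and the listed genes of related pathways, the patterns closest to PR10a over 12 libraries were those of KSL7, a diterpene synthase of phytocassane phytoalexins (r = 0.89), PR10b and RSOsPR10. KSL7 ranked 2 among 22370 loci compared with PR10a, and PR10b and RSOsPR10 ranked 23 and 26. Closest to PR10b were MAS and KSL4, a dehydrogenase and a diterpene synthase of the momilactone phytoalexins (r = 0.88 each), and WRKY28 (0.87), which ranked 29, 33 and 45. Closest to RSOsPR10 were MAS (0.91), AOS2, an allene oxide synthase of jasmonate synthesis (0.91), and the cytochrome P450 CYP99A2 of momilactone synthesis (0.89), which ranked 29, 34 and 63, and 49 loci reached an r of 0.9 with RSOsPR10. PR1a was nearest to RCC3 (0.78) and YSL15 (0.67), both root markers here, and to the beta-glucanase GNS1 (0.65), but these ranked 201, 567 and 703. PR1b was closest to CAB1R (0.52), CERK1 (0.47) and COI1A (0.46), at ranks 686, 1326 and 1529, a weak likeness for a gene at so few fragments.

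Most other pathogenesis-related genes rose in both genotypes. Of the 9 tested, which encode chitinases, a PR4 protein, a beta-glucanase, a peroxidase, a xylanase inhibitor and another PR10, 9 rose in WT and 7 in raf-b2/3, where 37.7% and 35.6% of all loci rose. Their median difference was 1.05 in WT and 1.01 in raf-b2/3, against 0.09 and 0.07 for all loci. JIOsPR10 (LOC_Os03g18850), the jasmonate-inducible PR10 gene on chromosome 3, rose in both genotypes, by 1.05 in WT (SE 0.14, limma adjusted p = 4.0e-05) and by 1.62 in raf-b2/3 (SE 0.14, adjusted p = 1.5e-06). Its mean level ran from 99.1 ± 1.83 FPKM in WT controls to 208 ± 25.8 in WT and 363 ± 60.2 in raf-b2/3 under mannitol (SD, n = 3 each). It was named after its values were seen, as the only PR10 gene in that list. The chitinase genes CHT8 and CHT3, also chosen after their values were seen, rose by 2.0 and 1.53 in WT and by 2.52 and 2.61 in raf-b2/3. None of the 9 genes differed in response between genotypes at the adjusted p, and their median difference in response was 0.17 against -0.03 for all loci. Under mannitol 2 of the 9 were higher in raf-b2/3 than in WT, where 8.37% of all loci were, and 0 were lower. Across the alternatives 1 to 3 were higher. With 1 library left out, JIOsPR10 was higher under mannitol by 0.72 to 0.94 (limma adjusted p of 0.00094 to 0.018).

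Without mannitol, the peroxidase gene POX22.3 and GNS1 were higher in raf-b2/3 than in WT, by 1.62 (SE 0.20, limma adjusted p = 0.0013) and 0.87 (SE 0.15, adjusted p = 0.011). The GNS1 call was lost without raf-b2/3 control 2, at adjusted p = 0.056. Neither passed in the raf-b2/3 mannitol response, at 0.32 and -0.17.

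Salicylic acid and defence regulators, many of them WRKY transcription factors, were counted next. Of 16 tested, 12 rose in WT with a median of 0.55, and 15 rose in raf-b2/3 with a median of 1.16, where 37.7% and 35.6% of all loci rose, and none of the 16 fell. WRKY71 had the largest rise of the list in raf-b2/3, by 2.93 (SE 0.21, limma adjusted p = 3.7e-07), and rose by 2.61 in WT. Under mannitol 11 of the 16 were higher in raf-b2/3 than in WT, where 8.37% of all loci were. WRKY45, a regulator of the rice response to probenazole and salicylic acid analogues and named after its values were seen, was at 8.76 ± 0.433 FPKM in WT controls, 6.90 ± 2.53 in WT under mannitol, 9.62 ± 0.426 in raf-b2/3 controls and 21.0 ± 4.36 in raf-b2/3 under mannitol (SD, n = 3 each). Its response was 1.38 greater in raf-b2/3 than in WT (SE 0.26, limma adjusted p = 0.017), and it was the 1 gene of the 16 that passed. That call was lost without WT mannitol 2 (1.32, adjusted p = 0.053), and 0 to 5 of the 16 passed across the alternatives. WRKY62 and WRKY76, repressors of defence in rice and chosen after their values were seen, had differences in response of 1.41 (adjusted p = 0.09) and 1.46 (adjusted p = 0.057).

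Diterpenoid phytoalexin genes were counted in the same way. Of 8 tested, 0 rose and 3 fell in WT, with a median of -0.41, and 3 rose and 2 fell in raf-b2/3, with a median of 0.63. Of all loci, 37.7% rose and 25.5% fell in WT, and 35.6% rose and 26.7% fell in raf-b2/3, so the raf-b2/3 counts were near those shares. The 3 that rose in raf-b2/3 were MAS (1.25), KSL4 (1.74) and CYP99A2 (1.02), which belong to the momilactone pathway and were named after their values were seen. CYP99A3 and CPS4 of the same pathway, also chosen after their values were seen, did not pass upward: CYP99A3 fell by 0.98 on the log2 scale (limma adjusted p = 0.0033) and CPS4 differed by 0.47 (adjusted p = 0.11). Under mannitol 6 of the 8 were higher in raf-b2/3 than in WT, with a median of 1.08 against -0.01 for all loci, of which 8.37% were higher, and 4 to 6 passed across the alternatives. The response of MAS was 1.40 greater in raf-b2/3 (SE 0.31, limma adjusted p = 0.031), a call that was lost in 7 of the 12 fits that left out 1 library, at 1.20 to 1.39 and adjusted p of 0.06 to 0.092.

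Jasmonate synthesis and signalling genes rose in 9 of 14 in WT, with a median of 0.53, and in 13 of 14 in raf-b2/3, with a median of 0.83, where 37.7% and 35.6% of all loci rose. Under mannitol 8 of the 14 were higher in raf-b2/3 than in WT, where 8.37% of all loci were, and 1 was lower. AOS2 (0.90, limma adjusted p = 0.025) and the repressor gene TIFY10B (0.39, adjusted p = 0.048) responded more in raf-b2/3 than in WT, and both calls were lost under a number of alternatives, 7 of 19 for AOS2 and 16 of 19 for TIFY10B. TIFY10B was named after its values were seen. Abscisic acid and osmotic stress genes had the highest median response of the 5 lists in both genotypes. Of 8 tested, 7 rose in WT with a median of 3.04 and 6 rose in raf-b2/3 with a median of 2.19, against the same shares of all loci. The dehydrin gene RAB16D rose by 6.73 in WT and by 3.46 in raf-b2/3, a difference in response of -3.27 (SE 0.36, adjusted p = 8.7e-04), and LEA3-1, a late embryogenesis abundant protein gene, had a difference in response of -3.11 (SE 0.68, adjusted p = 0.03). The LEA3-1 call was lost in 7 of the 12 fits that left out 1 library. The other 6 of the 8 did not pass for the difference in response. Among them PP2C09, a protein phosphatase gene, rose by 3.32 in WT and by 3.33 in raf-b2/3 (difference in response 0.01, SE 0.17, limma adjusted p = 0.99). Its level without mannitol was lower in raf-b2/3 by -0.60 (SE 0.12, adjusted p = 0.026), a call lost in 6 of 19 alternatives. Of these, 5 left out 1 of the control libraries compared: WT control 1, 2 or 3, or raf-b2/3 control 2 or 3. The other was limma-voom. Under mannitol RAB16A, another dehydrin gene, LEA3-1 and RAB16D were lower in raf-b2/3 than in WT, by -3.27, -2.77 and -2.68 (adjusted p = 2.1e-04, 0.0024 and 4.2e-05). Genes of the RAB16 group are related neighbouring copies, so the split of reads among them is uncertain.

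**Figure D4:**
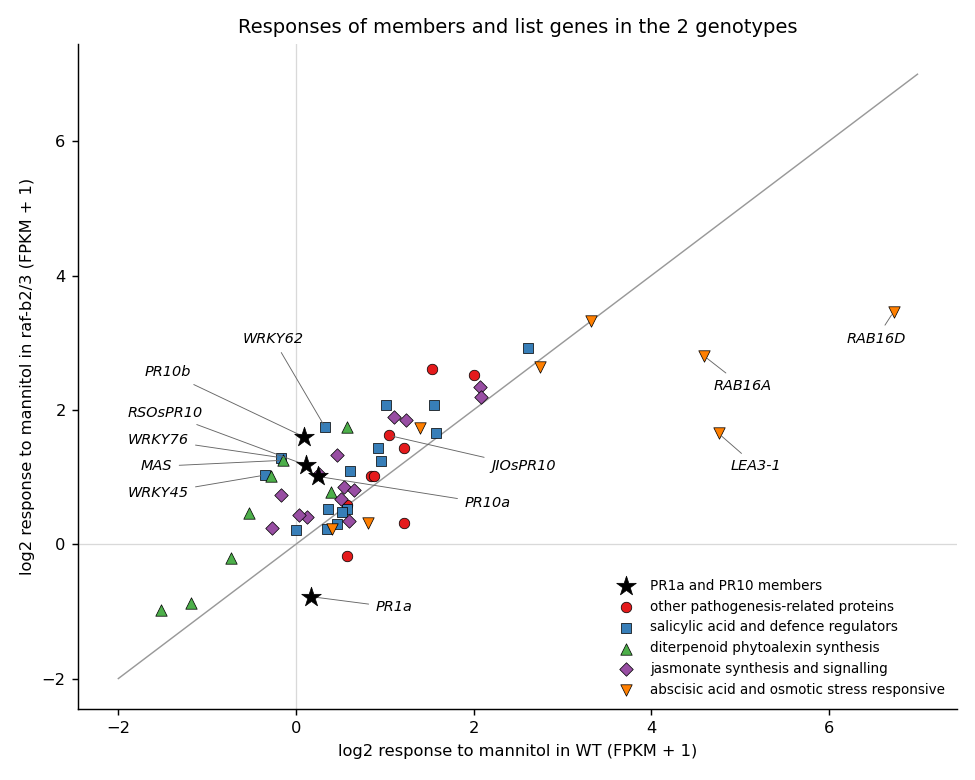
Mannitol response of each tested member and list gene in WT (x axis) and raf-b2/3 (y axis), as log2 differences of FPKM + 1, with the line of equal response. The 3 PR10 members lie near 0 on the WT axis and between 1.01 and 1.60 on the raf-b2/3 axis, PR1a lies below 0 on the raf-b2/3 axis, and RAB16D and LEA3-1 lie below the line.

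One locus between the PR10 genes by number, LOC_Os12g36860, which has no gene name in the sources used here, was chosen after its values were seen. It stood at 2.05, 1.81 and 1.47 FPKM in WT controls and at 3.19, 3.14 and 5.61 in WT under mannitol. In raf-b2/3 it stood at 1.37, 2.23 and 1.35 in controls and at 10.9, 12.2 and 7.40 under mannitol. Mannitol libraries lay above control libraries in both genotypes, while the WT groups of the 3 named PR10 genes overlapped. It rose by 0.81 in WT (SE 0.21, limma adjusted p = 0.0049) and by 2.06 in raf-b2/3 (SE 0.21, adjusted p = 4.9e-06). The difference in response was 1.25 (SE 0.30, adjusted p = 0.045), and that call was lost under 13 alternatives, at adjusted p of 0.058 to 0.16. The neighbours LOC_Os12g36840 and LOC_Os12g36870, chosen in the same way and at 1.56 ± 0.643 and 4.99 ± 0.297 FPKM in WT controls (SD, n = 3 each), fell in WT by 0.89 and by 0.68 on the log2 scale (adjusted p = 0.0046 and 0.013). Under mannitol in WT they were at 0.356 ± 0.179 and 2.73 ± 0.371 FPKM (SD, n = 3 each), low levels at which the added 1 FPKM shrinks a difference. In raf-b2/3 these 2 loci differed by -0.05 and -0.22 (adjusted p = 0.87 and 0.37), and neither differed in response between genotypes at the adjusted p (0.21 and 0.49).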

How the data were processed

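The authors deposited one table of FPKM per locus for 12 libraries, and beside it, per the file headers, a log2 fold change and a p-value of their own for the mannitol response of each genotype. Whether the deposited p-values are adjusted is not given in the sources used here, nor are the aligner, the counter and its strand setting. Trimmomatic, DESeq2, edgeR and genome build IRGSP-1.0 are named in the submitters' processing notes, and the labels' protocols name a directional library kit. FPKM columns were matched to libraries by name. Loci with FPKM of at least 1 in 3 or more libraries (22371) were tested with limma 3.58.1 in R 4.3.3, using a trend on mean level, on log2(FPKM + 1), with 1 mean for each of the 4 groups. The fit was tested on simulated data. Fragment numbers were recovered from FPKM steps within a tolerance of 0.01. Intervals cover the spread between libraries. Within a group, libraries correlated at 0.981 to 0.993, and none agreed within sampling noise.

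The members and lists were chosen with earlier results of these data known. Named were the members, their 3 closest list genes, and up to 3 list genes with the largest passing difference in each comparison; any other gene was named after their values were seen. Of 82 list and member entries, 80 were kept, 2 were left out because the reference table puts their symbol elsewhere, and 52 matched the RefSeq table of assembly ASM3414082v1 in chromosome and order. The other 28 kept entries had no symbol there or an ambiguous one, so their names were not checked. Among the members PR10a matched, while PR1a, PR1b, PR10b and RSOsPR10 had no symbol there. Locus numbers are those of the deposited table and no coordinates or sequences are printed.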

Additional observations from a re-analysis of the deposited data

Results flagged for a closer look

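Of 22371 loci, 666 differed in mannitol response between genotypes, and 7 of these are named here. They were named in part because they passed, so their number cannot be read against that of all loci. For the 7 the response differed between genotypes by a test of the difference itself (limma, Benjamini-Hochberg adjusted over 22371 loci), and none of them is one of the 5 PR1 and PR10 genes. The response was greater in raf-b2/3 for WRKY45 (1.38 on the log2 scale), MAS (1.40), AOS2 (0.90), TIFY10B (0.39) and LOC_Os12g36860 (1.25). It was smaller in raf-b2/3 for RAB16D (-3.27) and LEA3-1 (-3.11). Of 19 alternatives, the call was lost in 16 for TIFY10B, 13 for LOC_Os12g36860, 8 for MAS, 7 for AOS2 and 1 for WRKY45. The RAB16D call was lost under limma-voom, an alternative chosen after seeing the data (-3.94, adjusted p = 0.056), and held in the other alternatives run. The LEA3-1 call was lost in 7 of the 12 fits that left out 1 library.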

How the results depend on the processing

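Alternatives were a pseudocount of 0.1, no filter, median-of-ratios scaling, quantile normalization, a replicate block, leaving out each library, leaving out the pair WT control 2 and raf-b2/3 mannitol 3, and limma-voom on recovered fragments, which was chosen after seeing the data. The planned edgeR and DESeq2 fits were not run, and limma-voom took their place. Of 380 member values under alternatives, 354 kept their direction and side of the threshold. That count includes fits that left out a library of neither group compared, where the difference itself could not change. Members meeting the rule in the raf-b2/3 response numbered 1 to 3 when 1 library was left out (1 without raf-b2/3 control 3), against 3, and 2 after median-of-ratios scaling, where PR10a was at 0.94. For the difference in response they numbered 0 to 2 against 0, 1 after median-of-ratios scaling and 1 without both libraries. For raf-b2/3 against WT under mannitol they numbered 1 to 2 against 1, 2 after quantile normalization and 2 without both libraries. The difference in response was counted by the adjusted p alone, the others with the fold rule too. Over all loci, limma-voom gave 4259 for the raf-b2/3 response (2779), 367 for the difference in response (666; 263 to 745 with 1 library left out) and 894 under mannitol (509; 805 with a pseudocount of 0.1).

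With 1 library left out, the WT response ranged over -0.22 to 0.43 for PR1a, -0.13 to 0.55 for PR10a, -0.14 to 0.22 for PR10b and -0.07 to 0.26 for RSOsPR10. The genotype difference ranged over -0.62 to 0.07 for PR10a in controls and -0.30 to 0.02 for PR1a under mannitol. Directions that turned were of differences that did not pass the test. In WT they were PR1a (-0.22 without WT control 2, alone or with raf-b2/3 mannitol 3), PR10a (-0.13 without WT control 1), PR10b (-0.01 after median-of-ratios scaling, -0.02 after quantile normalization, -0.14 without WT mannitol 3) and RSOsPR10 (-0.07 without WT mannitol 3). Between genotypes they were PR10a in controls (0.07 without WT control 2, alone or with raf-b2/3 mannitol 3) and PR1a under mannitol (0.02 without raf-b2/3 mannitol 3, alone or with WT control 2). The cause was not tested. Deviations of same-numbered libraries from their group means correlated at r from -0.311 to 0.265. Differently numbered libraries were not compared, so whether the numbers mark pairs cannot be told from these values. With the replicate block, 3 members met the rule in the raf-b2/3 response, 1 under mannitol between genotypes and 0 in the other comparisons, as without it, and 556 loci passed for the difference in response. Depth limits PR1b, which had 2 to 59 fragments in a library.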
